A study of Homo sapiens with 2 samples.

Results

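The splicing factor and hnRNP names were described in 2 RNA libraries of 95D, an established line of human lung cancer cells, called here the no-glucose and the no-glutamine library. Members were gene names starting with HNRNP, SRSF, SF3, RBM, SNRN or PRPF, without a hyphen and with a number in the deposited tables, HNRNPA2B1 and HNRNPC left out. This gave 52 of 9253 names, which held 159 of 18663 transcript rows. Another 14 names fitted the rule by their letters but carried no number in any of their 25 rows, among them SRSF10, HNRNPR, PRPF31 and RBM8A. All 52 members are protein-coding genes in RefSeq, while the header of the tables calls the names those of long non-coding RNAs. A value therefore belongs to the listed rows and cannot be read as the amount of a gene's mRNA. The rows carry no transcript identifier.

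Wild-type 95D cells were kept in complete medium for 24 h and then for 48 h in DMEM lacking either glucose or glutamine, with 10% dialyzed FBS. Each condition had 1 library of rRNA-depleted total RNA, read in pairs of 150 bases, so nothing below could be checked against replicates and no test was run. No library from fully fed cells was analysed here. The series' title and design text speak of an immunoprecipitation with an anti-ALKBH5 antibody against input RNA, but neither sample's label says which of these its library is. The label descriptions of both samples name the same column of the joint table, and each file was assigned by its own sample record.

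Values are reads multiplied by 1 factor per library and are not divided by transcript length, so they rank amounts of reads and not numbers of molecules. The rows with a value held 42827 recovered reads in the no-glucose and 1442572 in the no-glutamine library. These totals cover those rows only, so they do not measure sequencing depth. The factors differed far less, at 1.264 and 0.791, a ratio of 1.60. Only 474 of the 18663 rows, or 2.54%, were above 0 in the no-glucose library. A 0 there is given as listed at 0, and a name at 0 in 1 library gets no fold of its own. Counts of names past 2-fold and median ratios do include such names, through the 1 added to every value. Of 10 lung and epithelial markers 5 carried a value. In the no-glucose and the no-glutamine library, KRT8 stood at 200 and 143, NAPSA at 161 and 18.9, KRT18 at 0 and 75.1, KRT19 at 0 and 42.6 and KRT7 at 0 and 9.47. Of 4 mesenchymal markers, FN1 stood at 344 and 963 and VIM at 0 and 75.9. The lineage markers NKX2-1, SFTPB, SFTPC, EPCAM and CDH1 had no value, nor had the mesenchymal CDH2 and COL1A1 or any of the 4 white blood cell and 3 endothelial markers.

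Splicing removes introns from pre-mRNA in the spliceosome, which is built from small nuclear ribonucleoproteins, or snRNPs, and many further proteins. SR proteins (SRSF names) bind exons and mostly promote their inclusion, whereas heterogeneous nuclear ribonucleoproteins (hnRNPs) coat nascent RNA and often oppose it. Many of these genes control their own output by making transcripts with a retained intron or a premature stop codon. Such a stop codon marks the RNA for decay, and some of these transcripts are annotated as non-coding. RefSeq lists at least 1 non-coding transcript for 14 of the 52 members (26.9%) and for 1684 of the 5643 protein-coding names with a value (29.8%). The RBM prefix is only a naming rule for RNA-binding motif proteins. RBM5, RBM10, RBM25 and RBM39 act in splicing, but RBM19 acts in ribosome production and RBMS1, RBMS2 and RBMS3 bind single-stranded nucleic acid, so the members are called by their names and not as 1 machine.

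In the no-glutamine library all 159 member rows were above 0, from 0.772, which is 1 recovered read, to 429. Of all 18663 rows with a value, 18564 were above 0 there. A row carries a number only where at least 1 library is above 0. The count of member rows was thus largely set by that rule and is no result about the members. In the no-glucose library 7 rows of 7 names were above 0, and 45 names were listed at 0. These 7 of 52 names are 13.5%, against 4.25% of all names and 5.23% of protein-coding names. Per row they are 7 of 159, or 4.40%, against 2.54% of all rows and 5.88% of rows of the other splicing genes described below. The members also had more rows, 3.06 per member against 2.02 per name overall. The names described here are SRSF3, HNRNPH1, HNRNPU, HNRNPA3, RBMS1 and SRSF4, 6 of the 7. No SF3 or SNRN name was among the 7, but these groups hold only 6 and 4 names. In RefSeq (GRCh38.p14) SRSF3 lies at chr6:36594362-36605600, HNRNPH1 at chr5:179614178-179634784, HNRNPU at chr1:244850297-244864543 and SRSF4 at chr1:29147743-29181900. HNRNPA3 lies at chr2:177212794-177223959 and RBMS1 at chr2:160272151-160493807. Which exons or introns the listed rows cover is not given in the tables.

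**Figure D1:**
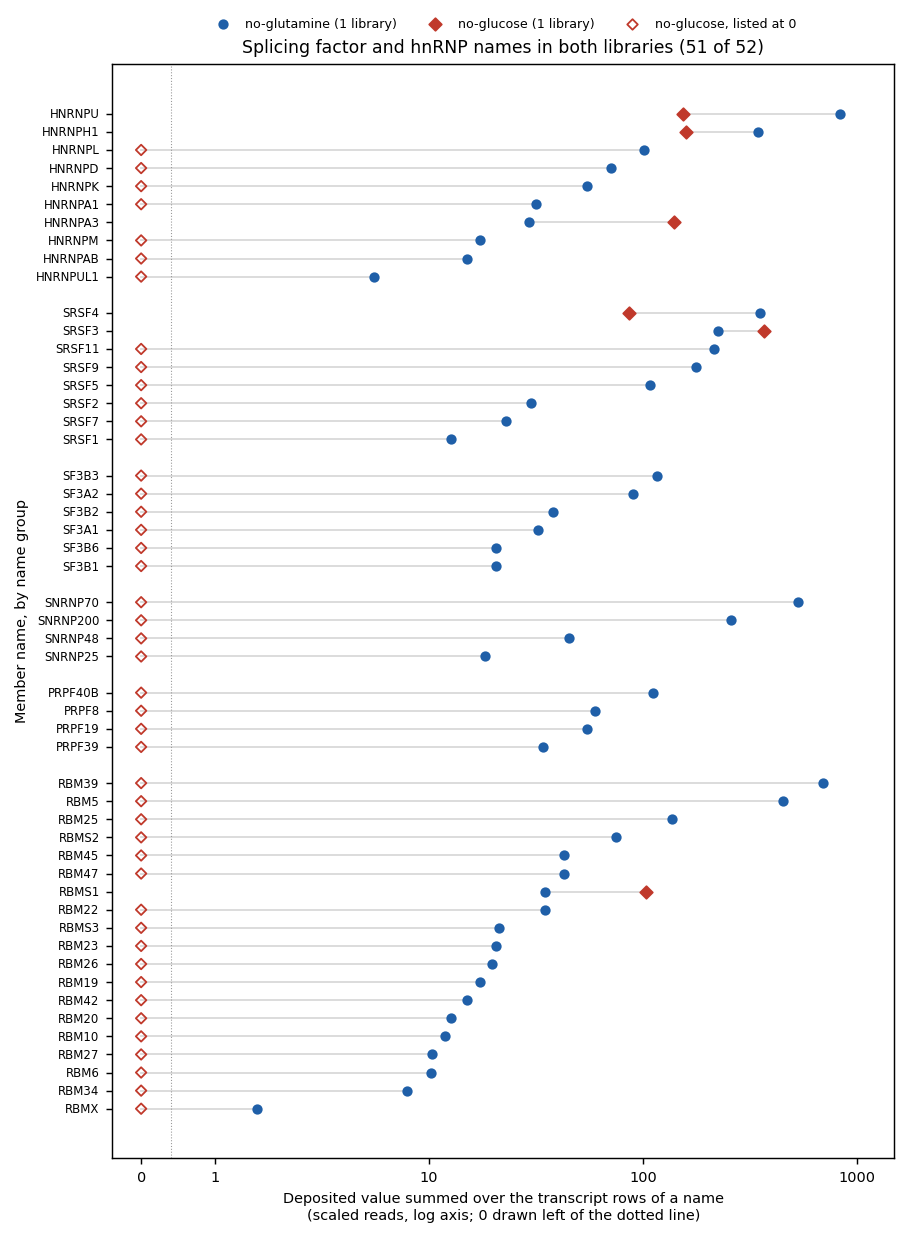
Summed value of 51 of the 52 members (scaled reads, log axis) in the no-glucose library (diamonds, open where listed at 0) and in the no-glutamine library (circles), 1 library each, by name group. In 45 members the diamond is at 0, and SRSF3, HNRNPA3 and RBMS1 are the 3 whose diamond lies to the right of the circle.

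On the log2(value + 1) scale 49 of the 52 members were at least 2-fold higher in the no-glutamine library, where 97.4% of all names were. HNRNPA3 and RBMS1 were at least 2-fold higher in the no-glucose library, 2 of 52 where 1.42% of all names were. SRSF3 lay between. With each library rescaled to a sum of 1000000, 45 members passed the same threshold toward the no-glutamine library, where 96.0% of all names did, and 7 toward the no-glucose library, where 3.75% did. The median log2 ratio was 4.77 over the members, 4.32 over all names and 4.80 over protein-coding names. Of the 49, 45 were listed at 0 in the no-glucose library, so the members' median mostly follows the no-glutamine value. A name at 0 there with at least 1 in the other library passes 2-fold through the 1 added to each value. For these 45 the count was thus fixed by the filter and is no result about the members.

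SRSF3, the smallest classical SR protein and a factor in mRNA export, had the highest no-glucose value of any member, 367, and 225 in the no-glutamine library. The summed value was thus 1.63-fold higher in the no-glucose library (95% counting interval 1.38 to 1.92). Its 3 rows stood at 0, 367 and 0 in the no-glucose library and at 184, 36.4 and 4.73 in the no-glutamine library. The row that carried all of the first was thus a minor row of the second, and was 10.1-fold higher in the no-glucose library (7.36 to 14.1). SRSF4, an SR protein of the longer class, stood at 86.0 in the no-glucose and 351 in the no-glutamine library, 4.08-fold higher in the latter (3.16 to 5.36). Its top row held 86.0 and 218, while its other 2 rows, at 104 and 29.3, were listed at 0 in the no-glucose library. These and later intervals hold counting error alone and leave out any spread between cultures, as each condition had 1 library. They take reads as independent, but reads that lack molecular identifiers are not independent molecules, so the intervals may be too narrow.

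HNRNPU, a nuclear matrix protein that binds RNA and chromatin, had 154 in the no-glucose and 833 in the no-glutamine library. Its sum was 5.40-fold higher in the latter (4.47 to 6.57). Its 7 rows ran from 16.6 to 311 in the no-glutamine library, and the row above 0 in the other was the second by level, at 154 and 172. For that row the ratio was 1.11 (0.888 to 1.40), an interval that includes equal values, so the higher sum of HNRNPU came from the 6 rows listed at 0. HNRNPH1, which binds G-rich elements and regulates exon choice, stood at 159 and 346, a sum 2.17-fold higher in the no-glutamine library (1.78 to 2.67). Its 1 shared row went the opposite way, 159 against 83.0, or 1.92-fold higher in the no-glucose library (1.47 to 2.51). The other 9 rows of HNRNPH1, from 3.94 to 82.3, were listed at 0 there.

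HNRNPA3, a relative of HNRNPA1 that takes part in RNA trafficking, stood at 140 in the no-glucose and 29.2 in the no-glutamine library. It was 4.80-fold higher in the former (3.28 to 7.16), and its shared row, at 140 and 27.7, made up 94.7% of its no-glutamine sum. RBMS1 had 1 row with a value, at 104 and 34.8, which was 2.98-fold higher in the no-glucose library (2.04 to 4.40).

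**Figure D2:**
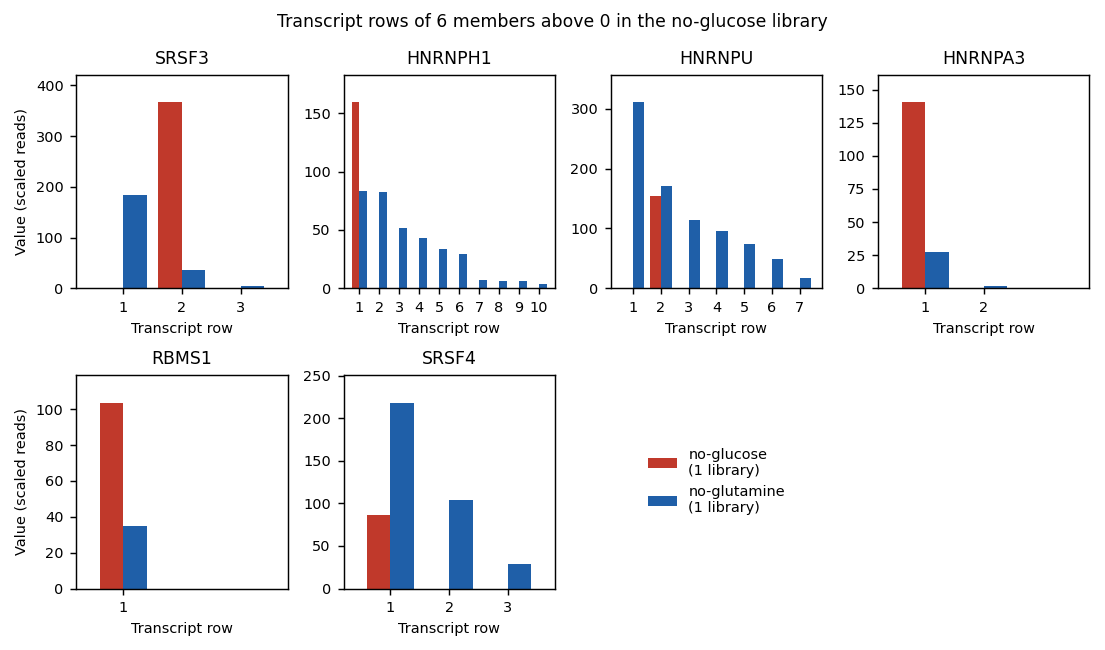
Value of every transcript row (scaled reads, linear axis from 0, a scale for each name) of 6 of the 7 members above 0 in the no-glucose library, with rows numbered by their no-glutamine value and 1 library per colour. Each name has a single no-glucose bar, which falls on row 2 in SRSF3 and HNRNPU and on row 1 in the other 4 names.

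The direction of 4 of these 7 sums depended on how the libraries were scaled, while SRSF3, HNRNPA3 and RBMS1 were higher in the no-glucose library under either scaling. Rescaling moves every ratio toward the no-glucose library, so a name already higher there could not change direction. On the deposited scale 4 of the 7, HNRNPU, SRSF4 and HNRNPH1 among them, passed 2-fold toward the no-glutamine library, where 42.2% of the 351 names above 0 in both libraries were. After rescaling, which moves plain log2 ratios by 4.40, all 7 were at least 2-fold higher in the no-glucose library, as were 86.9% of the 351. Rescaled log2 ratios ran from -1.96 for HNRNPU to -6.61 for HNRNPA3. At the level of rows, 5 of the 7 shared rows were higher in the no-glucose library as deposited, where 56.8% of all 375 shared rows were. HNRNPU and SRSF4 were the 2 exceptions.

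The order of the 7 rows within a library does not depend on scaling. In the no-glucose library they held 802 reads, of which the SRSF3 row took 36.2% (95% Wilson interval 32.9 to 39.5%) and the SRSF4 row 8.48% (6.74 to 10.6%). In the no-glutamine library they held 724 reads, of which SRSF3 took 6.35% (4.80 to 8.37%) and SRSF4 38.1% (34.7 to 41.7%). The HNRNPU row went from 15.2% (12.9 to 17.9%) to 30.0% (26.7 to 33.4%), in the same order of libraries. HNRNPA3 had 13.8% (11.6 to 16.4%) and 4.83% (3.50 to 6.65%). The HNRNPH1 row had like shares, 15.7% (13.4 to 18.4%) and 14.5% (12.1 to 17.3%), with intervals that overlap. The rows were chosen for being above 0 in the no-glucose library, so these shares are a description.

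**Figure D3:**
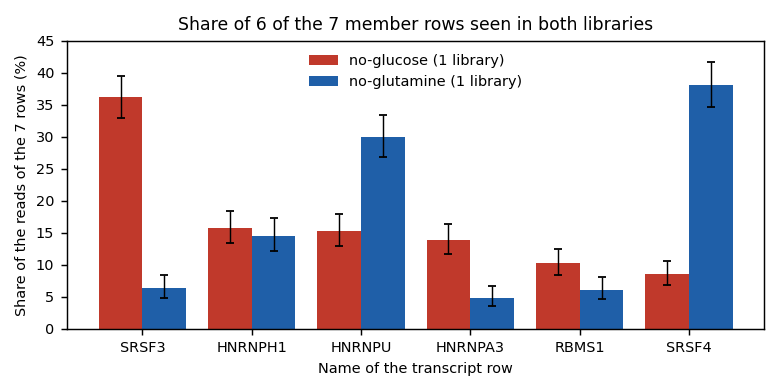
Share of the recovered reads of the 7 shared rows that each of 6 of them took (%, bars from 0, with 95% Wilson intervals for counting error) in the no-glucose (802 reads) and no-glutamine library (724 reads), 1 library each. SRSF3 leads the first with 36.2% and SRSF4 the second with 38.1%, while the intervals of HNRNPH1 overlap.

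The windows before the RefSeq start sites are shown for SRSF3, the member with the highest no-glucose value, for HNRNPU, with the highest no-glutamine value, and for SNRNP70, the highest no-glutamine member at 0 in the other library with a window in the RefSeq promoter table (GRCh38.p14). Each holds the 250 bases before the start, 5′ to 3′ on the gene's strand. Capitals mark matches on either strand to the TATA box letters TATAAA, the NF-Y box CCAAT, the GC box GGGCGG, the ETS core CCGGAA and the CREB-type core TGACG.
SRSF3 (chr6:36594112-36594361, plus strand): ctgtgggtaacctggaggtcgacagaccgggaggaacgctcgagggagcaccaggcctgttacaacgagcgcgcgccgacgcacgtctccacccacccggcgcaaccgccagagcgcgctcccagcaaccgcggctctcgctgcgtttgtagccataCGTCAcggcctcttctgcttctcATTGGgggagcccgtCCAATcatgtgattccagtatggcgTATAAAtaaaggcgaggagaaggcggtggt
HNRNPU (chr1:244864544-244864793, minus strand): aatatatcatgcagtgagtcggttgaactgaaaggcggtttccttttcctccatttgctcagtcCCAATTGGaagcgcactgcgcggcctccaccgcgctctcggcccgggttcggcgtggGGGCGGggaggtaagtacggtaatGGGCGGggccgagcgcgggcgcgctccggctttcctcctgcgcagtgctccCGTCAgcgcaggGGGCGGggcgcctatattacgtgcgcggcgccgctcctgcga
SNRNP70 (chr19:49085201-49085450, plus strand): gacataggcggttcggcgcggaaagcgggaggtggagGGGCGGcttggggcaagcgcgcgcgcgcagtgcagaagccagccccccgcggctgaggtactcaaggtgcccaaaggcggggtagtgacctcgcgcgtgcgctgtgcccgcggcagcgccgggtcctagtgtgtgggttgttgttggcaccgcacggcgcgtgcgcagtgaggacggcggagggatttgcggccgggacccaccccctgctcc
SRSF3 was the 1 of the 3 with TATAAA, which began 30 bases before its start, and it had CCAAT matches at 55 and 70 bases. HNRNPU had 3 GC boxes and SNRNP70 had 1. In HNRNPU the CCAAT matches of the opposite strands overlap. Among the 59 windows of the 46 members in the table, TATAAA was in 15.3%, against 9.00% of 22199 windows of protein-coding genes. CCAAT was in 40.7% against 32.7%, GGGCGG in 57.6% against 53.7%, CCGGAA in 27.1% against 18.0% and TGACG in 32.2% against 24.2%. The median number of CG pairs was 22 in member windows and 16 in those of protein-coding genes, at a median GC content of 62.4% and 62.0%. A match is a description of letters, and the rows are not tied to a start site.

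Among the 10 hnRNP names, HNRNPU and HNRNPH1 were followed in the no-glutamine library by HNRNPL at 101, which binds CA repeats, HNRNPD at 71.2, known as the mRNA decay factor AUF1, and HNRNPK at 54.5, a binder of C-rich RNA. HNRNPUL1, a relative of HNRNPU, was the lowest of the group at 5.52. HNRNPL, HNRNPD, HNRNPK and HNRNPUL1 were listed at 0 in the no-glucose library. The values of this group ran from 5.52 to 833, with a median of 43.1. HNRNPA1, chosen after its value was seen because it is among the best studied hnRNPs, stood at 31.6 over 3 rows. The excluded names HNRNPA2B1 and HNRNPC stood at 349 and 124 and were listed at 0 in the other library.

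Of the 8 SR protein names, SRSF11 at 216, SRSF9 at 178 and SRSF5 at 107 came after SRSF4 and SRSF3 in the no-glutamine library. None of these 3 had a row above 0 in the no-glucose library, where 4.25% of all names had one. SRSF11 drew 96.3% of its value from 1 of its 2 rows. SRSF9 spread over 3 rows of 91.0, 49.8 and 37.2, and SRSF5 over 7 rows of which the highest was 38.0. The founding members SRSF1 at 12.6 and SRSF2 at 30.0, chosen after their values were seen, were near the low end of the group, whose median was 143.

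The SF3 names are subunits of the U2 snRNP that recognise the branch point. All 6 were listed at 0 in the no-glucose library, where only 4.25% of all names were above 0. SF3B3 had 116 in the no-glutamine library, SF3A2 90.1, SF3B2 37.9, SF3A1 32.4 and SF3B6 20.5. Values were spread thinly over 25 rows with a median of 9.47. SF3B2 had 5 rows, none above 10.3. SF3B1, which contacts the branch point and was chosen after its value was seen, had 20.5 over 4 rows.

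The SNRN names are proteins of the snRNPs. SNRNP70, a protein of the U1 snRNP, which recognises the 5′ splice site, stood at 533 in the no-glutamine library, and a single row of 429, the largest of any member, made up 80.4% of it. SNRNP200, the helicase that unwinds the U4/U6 pair, had 259, with 2 rows of 108 and 106 and the other 4 at 39.5 or less. SNRNP48 and SNRNP25, of the minor spliceosome, had 45.1 and 18.2 in 1 row each. All 4 were listed at 0 in the no-glucose library, where only 4.25% of all names were above 0.

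Of the PRPF names, PRPF40B, a U1-associated protein, had 111 in the no-glutamine library, PRPF8, the protein at the catalytic centre, 60.0 over 7 rows, PRPF19, a ubiquitin ligase of the activating complex, 54.5, and PRPF39, a U1-associated protein as well, 34.0. These 4 were listed at 0 in the no-glucose library, where only 4.25% of all names were above 0. No PRPF8 row was above 19.8.

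The 19 RBM names held both extremes of the members at 0 in the no-glucose library. RBM39, a U2AF-like splicing factor that aryl sulfonamide drugs send to degradation, had 698 in the no-glutamine library over 11 rows, from 1.56 to 319. RBM5, a regulator of apoptosis gene splicing, had 454 over 12 rows, the most of any member, with a top row of 202. RBM25 had 136 in 1 row, RBMS2 75.1 and RBM45 42.7. At the low end were RBM34 at 7.89 and RBMX, an X-linked hnRNP-like protein, at 1.56, which is 2 recovered reads. With HNRNPUL1 these were the 3 lowest members. The median of the group, 20.5, was the lowest of the 6 name groups.

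Reads were unevenly divided among the members. In the no-glutamine library the 5 highest names, HNRNPU, RBM39, SNRNP70, RBM5 and SRSF4, held 49.8% of the members' summed value of 5764, and the 10 highest held 71.0%. A value of 100 or more was reached by 15 of 52 members (28.8%). It was reached by 15.8% of all names, 21.2% of protein-coding names and 39.1% of the other splicing genes described below. Of the 15 members, 11 were listed at 0 in the no-glucose library, where 4.25% of all names, at any level, were above 0. Across the 52 members the sum went with the number of rows (Spearman's rho 0.69, across names, which share a library), as it did over all 9253 names (0.65). In the 23 members with 3 or more rows, the top row held 24.0 to 81.8% of the sum, with a median of 45.7%.

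Row by row the members were close to the rest of the table. The median member row in the no-glutamine library was at 14.2, with quartiles of 7.10 and 37.2. Rows of all names had a median of 13.4 (5.52 and 30.8), and rows under protein-coding names one of 14.2 (6.31 and 34.0). Rows of 3 reads or fewer were 11.3% of member rows and 11.2% of all rows. A wider gap was in how many listed rows carried a number, which the tables give where at least 1 library is above 0. Over the 66 names that fit the rule by their letters, the 14 without a value included, that was 159 of 260 rows (61.2%), against 20.3% of all 91835 rows, 39.2% of rows under protein-coding names and 51.3% of rows of other splicing genes. Since the rule asks for a number, this share is a description.

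**Figure D4:**
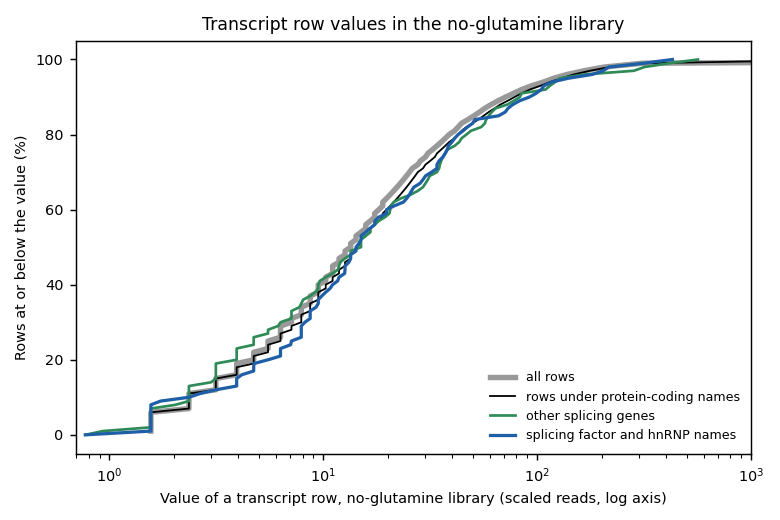
Cumulative share of transcript rows (%) at or below a value in the no-glutamine library (scaled reads, log axis, drawn to 1000) for the 159 member rows, 221 rows of other splicing genes, 13407 rows under protein-coding names and all 18663 rows, from 1 library. The 4 curves lie close together, with medians of 14.2, 15.0, 14.2 and 13.4.

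Shares were taken of the recovered reads of all rows with a value, which are not the whole library. In the no-glucose library the members took 802 of 42827 such reads, or 1.87% (95% Wilson interval 1.75 to 2.01%). In the no-glutamine library they took 7290 reads, or 0.505% (0.494 to 0.517%). Without SRSF3 the no-glucose share was 1.20% (1.10 to 1.30%), so this 1 row carried 36.2% of it. Leaving out XLOC_220679, an unnamed locus that led both libraries, lowered the totals to 37261 and 883107 reads. The members' shares were then 2.15% (2.01 to 2.30%) and 0.825% (0.807 to 0.845%).

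A separate list held other genes of the spliceosome and of splicing control. Of its 128 genes 69 had a value, and 8 of these (11.6%) were above 0 in the no-glucose library, where 4.25% of all names were. On the deposited scale, 66 passed 2-fold toward the no-glutamine library (97.4% of all names) and SNRPF passed it toward the no-glucose library (1.42% of all names). SNRPF, an Sm ring protein, stood at 126 and 2.34. MATR3, a nuclear matrix RNA-binding protein, had 219 in the no-glucose and 715 in the no-glutamine library, and DDX5, an RNA helicase, 154 and 261. NONO, a paraspeckle protein, had 144 and 308, EWSR1 129 and 399, EFTUD2, the U5 snRNP GTPase, 98.6 and 151, PCBP2 63.3 and 342, and DDX42 45.5 and 114. After rescaling all 8 were at least 2-fold higher in the no-glucose library. PTBP1, the polypyrimidine tract-binding protein, at 425, SRRM2 at 384 and DDX17 at 368 were among the 8 highest in the no-glutamine library and were listed at 0 in the other. None of the 9 measured genes of the Prp19 and catalytic group, the 5 of the exon junction complex or the 10 SR-like proteins and kinases was above 0 in the no-glucose library. These genes took 1.81% (1.69 to 1.94%) and 0.759% (0.745 to 0.774%) of recovered reads in the no-glucose and no-glutamine libraries.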

How the data were processed

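Per the labels' protocols, total RNA was depleted of ribosomal RNA and sequenced in pairs. The submitters' processing notes name HISAT2 2.0.5, StringTie and hg38, without their roles. How reads were counted, annotated and normalized is not given in the sources used here, and the file headers state no unit. The deposited values, another unit than counts, are scaled reads per transcript row that the authors made by a step not stated. Values under 1e-09 were set to 0 and rows with a mark in place of a number were left out. Low values climbed in steps of 1.264 and 0.791 with offsets of 0.022 and -0.018 in the no-glucose and no-glutamine libraries. After removing them, 100% of the values worth up to 1000 reads (472 and 18536 of them) lay within 0.1 of a whole number. These whole numbers, the recovered reads, give the totals over rows with a value, the shares and the intervals.

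Rows were summed per name, a name was kept if either library had at least 1, and ratios are log2(value + 1). This understates ratios of low names. Read ratios have exact conditional intervals and shares Wilson intervals, both at 95%. Members, gene lists and settings were chosen with earlier results of these data known. Named members were those above 0 in the no-glucose library, the 5 highest per name group, the 3 lowest, and the 3 with the most rows. Of the other splicing genes, those above 0 in the no-glucose library and the 8 highest were named. A few names within these rules are not reported here, though counts and sums include them. The step recovery was tested on simulated data. The ratio was checked for sign and size only, on simulated positive values without noise, which does not cover names listed at 0. Python 3.11.15, pandas 2.3.3, numpy 2.4.6 and scipy 1.17.1 were used, with gene names and promoters from RefSeq (GRCh38.p14).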

Additional observations from a re-analysis of the deposited data

How the results depend on the processing

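Of 54 alternative values for the counts, the median and the shares, 32 stayed within 1.5 times the reported count, 0.1 of the reported log2 median or the interval of the reported share. Some of these 32 could not change, so their number is no measure of robustness. The minimum of 1 left out no name, and HNRNPA2B1 and HNRNPC were listed at 0 in the no-glucose library. With each library rescaled to 1000000, 7 members were at least 2-fold higher in the no-glucose library and the median log2 ratio was 4.59. With ratios centred on the median of all names, which by itself evens out the sides, 20 were higher in the no-glutamine and 10 in the no-glucose library, at a median of 0.45. With values of at least 1 asked in both libraries, 4 were higher in the no-glutamine library and the median was 1.12, since 7 names were left. The median was 8.04 with a pseudocount of 0.1, 4.96 with a minimum of 5, 4.32 with the highest row per name and 4.99 with HNRNPA2B1 and HNRNPC, which also took the no-glutamine share to 0.547%. At 4-fold, 1 member was higher in the no-glucose library. Leaving XLOC_220679 out of the totals gave shares of 2.15% and 0.825%. Left out after the data were seen, SRSF3 gave a median of 4.96 and shares of 1.20% and 0.486%, and RBMS1 to RBMS3 gave 1 member higher in the no-glucose library, a median of 4.96 and shares of 1.68% and 0.494%. Asking for at least 5 or 10 in place of any value above 0 left 6 members in the no-glucose library. Among the 6 members above 0 in both libraries that are described, 3 turned sign under rescaling and under centring, in that order: HNRNPH1 (-3.27 and -3.20), HNRNPU (-1.96 and -1.89) and SRSF4 (-2.36 and -2.30). With the highest row in place of the sum HNRNPH1 stood at -0.93. SRSF3, HNRNPA3 and RBMS1 kept their sign under every setting run on them, but none of these settings could have turned it. Rescaling and centring move every ratio toward the no-glucose library, where these 3 were already higher. A pseudocount cannot turn a sign, and the highest row can only lower their no-glutamine value. No paired analysis was possible because each condition had 1 library. What a 0 in the no-glucose library stands for cannot be told here, since 6 rows of HNRNPU stood at 0 beside a row of 122 recovered reads, and no upper limit was drawn from it.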

Other observations

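The 7 member rows above 0 in both libraries held 802 recovered reads in the no-glucose and 724 in the no-glutamine library. Over all rows with a value the recovered reads differed 33.7-fold. All rows above 0 in both libraries other than that of XLOC_220679, 374 with these 7 among them, held 30391 and 170368 reads, a 5.61-fold difference. Such a sum can be led by a few high rows. Row by row, the median log2 ratio of all 375 shared rows was -0.37, and 56.8% of them were higher in the no-glucose library. Of the 7 member rows, 5 were higher there, from 1.92-fold in HNRNPH1 to 10.1-fold in SRSF3, and 2 were higher in the no-glutamine library. The like read totals of the member rows thus do not mean like levels row by row. The factors of the libraries also differ, so read totals are not values. For names with at least 2 rows, the shared row was the top row of the name in the no-glutamine library in 3 of 6 members and for 123 of 300 such rows over all names (41.0%). These values were looked at after the data were seen.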
